A study of Mus musculus with 6 samples.

Results

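The genes described here are the matrix metalloproteases (MMPs), the ADAM, ADAMTS and ADAMTS-like genes, and the inhibitors of these proteases, the TIMPs and Reck. They were taken by name, as every non-control probe of the array whose gene name begins with Mmp, Adam or Timp and a number, or with Adamts, or equals Reck. The rule found 131 of 41174 probes, for 76 of 28786 genes: 21 MMP genes, 28 ADAM genes, 17 ADAMTS genes, 5 ADAMTS-like genes, 4 TIMPs and Reck. The measurements came from 3 primary cultures that received pre-miR-16, a precursor of the microRNA miR-16, and from 3 that received pre-miR-Control, a scrambled precursor. Both groups were cultures of C4HD, an ErbB-2 positive mammary tumour that first arose in female BALB/c mice given the progestin medroxyprogesterone acetate (MPA) and that is passed by transplantation between MPA-treated mice. Both received 30 nM of precursor with the reagent siPORT NeoFx, and RNA was taken after 48 h. The cultures were the epithelium-enriched part of the digested tumour, left after fibroblasts had been removed by repeated sedimentation, and were therefore not a clonal line. The labels state no age for the mice, there was no untransfected group, and the level of miR-16 itself was not analysed here.

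MMPs are zinc endopeptidases that are made as inactive proenzymes and, once cleaved, digest collagens, proteoglycans and other proteins of the extracellular matrix. ADAMs sit in the membrane and shed the outer parts of growth factors and receptors, while ADAMTS proteins are secreted and trim procollagens and proteoglycans. TIMPs bind in the active site of these enzymes, and Reck is a membrane-anchored inhibitor of several of them. In mammary tumours many of the enzymes are known to be made by stromal and inflammatory cells as well as by the epithelium.

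The mature sequence of mouse miR-16 is shown because its seed (bases 2 to 8, in capitals) defines what miR-16 recognises. It is the reference 5p strand and not read from the reagent, which was a precursor; it is 22 bases long, and the same in both mouse genes, Mir16-1 on chromosome 14 and Mir16-2 on chromosome 3 (RefSeq, GRCm38.p6).
mmu-miR-16-5p: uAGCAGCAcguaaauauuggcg

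Of the MMP genes, 8 lie next to each other on mouse chromosome 9, and 4 of their promoters are shown because these neighbours differed in what the arrays recorded. Each is the 300 bases from 250 before to 50 after the start of the gene, 5′ to 3′ (RefSeq, GRCm38.p6). Capitals mark a match to TGANTCA, the letters bound by AP-1, the Fos and Jun dimers known to drive several MMP genes. The motif reads the same on both strands.
Mmp3, chr9:7445572-7445871, plus strand: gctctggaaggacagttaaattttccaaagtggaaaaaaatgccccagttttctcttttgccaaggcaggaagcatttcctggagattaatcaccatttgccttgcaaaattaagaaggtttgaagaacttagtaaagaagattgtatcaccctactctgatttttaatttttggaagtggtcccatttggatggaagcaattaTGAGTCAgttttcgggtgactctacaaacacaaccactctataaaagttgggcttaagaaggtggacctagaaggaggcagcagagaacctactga
Mmp13, chr9:7272264-7272563, plus strand: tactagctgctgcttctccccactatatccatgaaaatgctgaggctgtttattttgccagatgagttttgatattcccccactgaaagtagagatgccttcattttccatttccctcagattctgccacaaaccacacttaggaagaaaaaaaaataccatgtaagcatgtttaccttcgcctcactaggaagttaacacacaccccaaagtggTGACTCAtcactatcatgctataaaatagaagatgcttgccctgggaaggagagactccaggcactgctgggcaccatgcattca
Mmp10, chr9:7502092-7502391, plus strand: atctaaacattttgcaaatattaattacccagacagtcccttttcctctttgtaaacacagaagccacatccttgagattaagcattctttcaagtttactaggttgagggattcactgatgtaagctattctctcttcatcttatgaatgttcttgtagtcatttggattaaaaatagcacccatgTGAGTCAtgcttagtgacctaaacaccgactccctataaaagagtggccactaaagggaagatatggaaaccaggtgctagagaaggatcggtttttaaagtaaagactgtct
Mmp8, chr9:7558179-7558478, plus strand: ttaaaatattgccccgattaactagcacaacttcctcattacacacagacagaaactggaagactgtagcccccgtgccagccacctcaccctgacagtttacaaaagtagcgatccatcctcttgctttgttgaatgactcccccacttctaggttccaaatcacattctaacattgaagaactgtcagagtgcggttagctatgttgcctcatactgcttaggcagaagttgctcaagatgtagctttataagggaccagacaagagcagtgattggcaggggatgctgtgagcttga

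The arrays were single-colour, 1 per culture, and their number limits the precision. A probe is called detected where the scanner software marked its signal as well above background. The share of spots so marked was 57.8% to 60.4% on pre-miR-16 arrays and 57.2% to 64.0% on pre-miR-Control arrays, with no spot saturated. A level below is the log2 of the processed signal minus the array's own 75th percentile, and a change is the pre-miR-16 mean minus the pre-miR-Control mean of such levels with its standard error (SE) from limma. Levels of different genes come from different probes and are not comparable. A gene was called at an adjusted p under 0.05 (limma, Benjamini-Hochberg over 16702 genes). Scaled instead on spike-in probes, the median change of all genes moved by 0.38, the same shift for every gene, so that a change is best read against that median. The members' median stood 0.95 above it. Per-array values are given in the order of replicates 1, 2 and 3. The pre-miR-16 replicate 2 array stood somewhat apart: it was farthest from the middle pre-miR-16 array for 32 of the 45 tested members. It was also the only pre-miR-16 array on slide 2, and replicate 1 was the only one on slide 1. A value given below for a slide therefore cannot be told apart from that of 1 pre-miR-16 array.

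Of the 76 genes, 45 passed the filter on dim probes and were tested. Among them 24 rose and 9 fell with pre-miR-16, 33 in all, while 12 were not called, with a median change of 0.75, against −0.20 over all genes. Of all 16702 genes tested 16% rose and 33.1% fell, or 49.1% in all. At least 2-fold rises were called in 20 members and such falls in 5, against 10.3% and 6.84% of all genes. In 19 members the groups did not overlap and the rise was at least 2 on the log2 scale, which held for 6.87% of all genes, and 1 member (Adamts3, detected on no pre-miR-16 array by the probe tested) fell as far, against 0.641% of all genes. The filter itself bears on these counts. A gene that passed it through the pre-miR-16 arrays alone was bound to be higher there, and all 9 such members rose, as did 79.8% of the other genes that passed in this way. Of the 33 members detected on all 3 arrays of both groups, 15 (45.5%) rose and 8 (24.2%) fell, against 12.9% and 33.8% of the 15012 other such genes. Fewer cells of a type and less RNA per cell cannot be told apart in such bulk RNA.

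**Figure D1:**
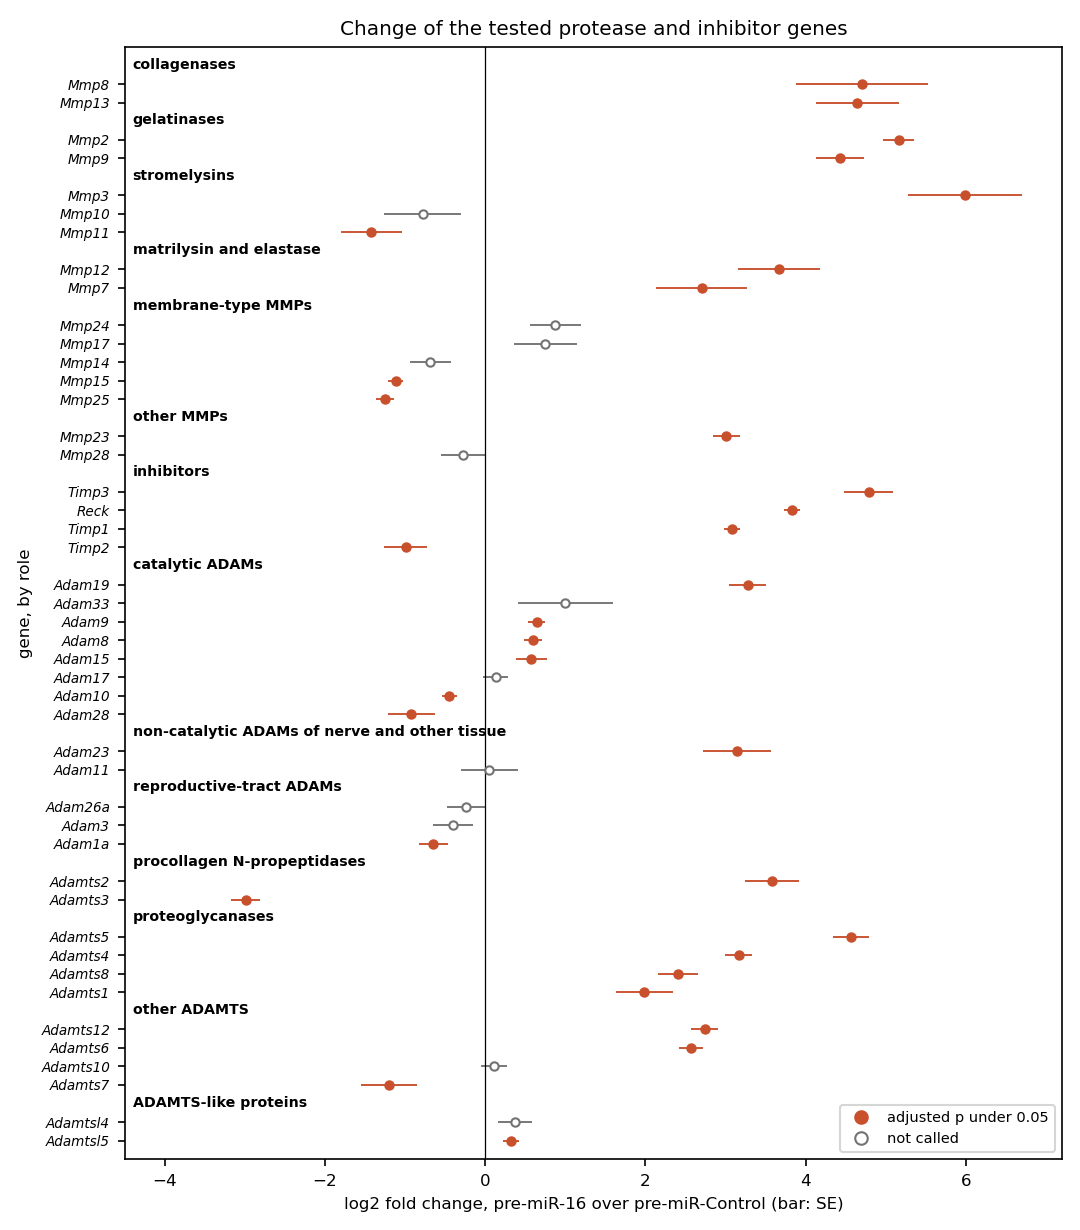
Log2 change of the 45 tested genes, pre-miR-16 over pre-miR-Control, with SE, grouped by role. Filled points have an adjusted p under 0.05 in limma. The gelatinases, collagenases and proteoglycanases lie right of 0, while membrane-type MMPs lie on both sides with 2 called falls. The collagenases and Adamts5 passed the filter through the pre-miR-16 arrays alone.

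The gelatinases, which digest denatured collagen and basement membrane, both rose. Mmp2, gelatinase A, read by a probe at chr8:91446191-91446250 (mm7), had levels of 2.10, 2.70 and 2.05 on pre-miR-16 arrays, against −2.72, −2.97 and −2.94 on pre-miR-Control arrays. The 2 groups were separated by a wide gap, with each group close together. The change was 5.16 ± 0.19, or 35.8-fold (adjusted p = 1.44e-05, limma). Mmp9, gelatinase B (chr2:164695457-164695516, mm7), had levels of −0.09, 0.62 and −0.24 on pre-miR-16 arrays, against −3.84, −4.51 and −4.63 on pre-miR-Control arrays. Again no array of one group reached the other, and the change was 4.42 ± 0.30. A second Mmp9 probe, printed in 10 spots per array, gave 4.67 ± 0.30, and the first gave 2.87 with normexp background correction, which pulls dim signals together.

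Both tested collagenases, the enzymes that cut intact fibrillar collagen, were higher with pre-miR-16. Both passed the filter through the pre-miR-16 arrays alone, so that the direction they share follows from the filter. Mmp13, collagenase-3 (chr9:7280046-7280105, mm7), had levels of −1.22, −0.72 and −1.30 on pre-miR-16 arrays, against −4.63, −5.83 and −6.72 on pre-miR-Control arrays. It was detected on all 3 pre-miR-16 arrays and on 1 of 3 pre-miR-Control arrays, and the change was 4.65 ± 0.51 (adjusted p = 0.000961, limma). Mmp8, the collagenase best known from neutrophils (chr9:7566361-7566420, mm7), had levels of −0.93, −0.72 and −1.01 on pre-miR-16 arrays, against −4.92, −4.26 and −7.60 on pre-miR-Control arrays. The pre-miR-16 arrays were nearly equal, and the pre-miR-Control arrays were spread widely at the low end, where only 2 of 3 were detected. The change was 4.71 ± 0.82 (adjusted p = 0.00507). Mmp1a, an interstitial collagenase, was detected on no array and was not tested. With normexp correction the changes were 2.29 for Mmp13 and 2.37 for Mmp8, still called.

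Of the stromelysins, which have a broad range of matrix substrates and also activate other MMPs, 1 rose, 1 fell and 1 was not called. Mmp3, stromelysin-1 (chr9:7453874-7453933, mm7), had levels of 0.00, 0.21 and 0.05 on pre-miR-16 arrays, against −5.27, −4.81 and −7.63 on pre-miR-Control arrays. It too passed the filter through the pre-miR-16 arrays alone, and was detected on 2 of 3 pre-miR-Control arrays. The change was 5.99 ± 0.71 (adjusted p = 0.00122, limma), the largest of the 45 members on the processed signal, but 3.31 with normexp correction, below Timp3 (4.62) and Mmp2 (4.41). Mmp10, stromelysin-2, had levels of −2.15, −0.38 and −1.96 on pre-miR-16 arrays, against −0.72, −0.41 and −1.03 on pre-miR-Control arrays. Here the groups overlapped through pre-miR-16 replicate 2, and the change of −0.78 ± 0.48 was not called (adjusted p = 0.22). Without that array it was −1.34 and called (adjusted p = 0.00412). Mmp11, stromelysin-3, which is known from the stroma of breast carcinomas, had levels of 1.03, 2.42 and 1.03 on pre-miR-16 arrays, against 2.85, 2.99 and 2.91 on pre-miR-Control arrays. All pre-miR-16 arrays were lower, replicate 2 least so, and Mmp11 fell by 1.42 ± 0.38 (adjusted p = 0.0233). Slide 1 alone gave −1.82 and slide 2 alone −0.52, and a fit with slide as a block had an adjusted p of 0.068.

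The matrilysin Mmp7 and the macrophage elastase Mmp12 were detected on no pre-miR-Control array, so that their fold is a lower bound, taken against the lowest detected signal. Both passed the filter through the pre-miR-16 arrays alone, and their direction follows from the filter. Mmp12 had levels of −2.66, −1.83 and −2.83 on pre-miR-16 arrays, against −5.86, −5.32 and −7.16 on pre-miR-Control arrays, and was at least 7.42-fold higher with pre-miR-16 (adjusted p = 0.0022, limma). Mmp7 had levels of −3.05, −4.58 and −2.91 on pre-miR-16 arrays, against −5.68, −5.85 and −7.12 on pre-miR-Control arrays. It was at least 3.53-fold higher with pre-miR-16 (adjusted p = 0.00986), with replicate 2 the lowest of its group. Such bounds hold for the processed signal: with normexp correction the log2 change was 1.23 for Mmp12 and 0.62 for Mmp7.

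Of the 5 tested membrane-type MMPs, which act at the cell surface, 2 fell and 3 were not called. Mmp15 had levels of 0.63, 0.68 and 0.60 on pre-miR-16 arrays, against 1.83, 1.63 and 1.81 on pre-miR-Control arrays, a fall of 1.12 ± 0.09 on the log2 scale (adjusted p = 0.000305, limma). Mmp25 had levels of −4.47, −4.25 and −4.34 on pre-miR-16 arrays, against −2.96, −3.18 and −3.17 on pre-miR-Control arrays, and its change was −1.25 ± 0.11, or −0.67 with normexp correction. In both genes the replicates lay close together and the groups apart. Mmp14, the activator of pro-Mmp2, had levels of 4.91, 5.61 and 4.57 on pre-miR-16 arrays, against 5.73, 5.70 and 5.72 on pre-miR-Control arrays. Every pre-miR-16 array was lower, but replicate 2 by little, and the change of −0.68 ± 0.26 was not called (adjusted p = 0.0675). It became a call without that array, at −0.97 (adjusted p = 0.00231), and with normexp correction, at −0.63 (adjusted p = 0.049).

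Mmp17 and Mmp24 were each read by 2 probes that did not give the same answer. The brighter Mmp17 probe had levels of −1.60, −1.31 and −1.62 on pre-miR-16 arrays, against −1.32, −2.66 and −2.81 on pre-miR-Control arrays, and its change of 0.75 ± 0.39 was not called. Pre-miR-Control replicate 1 lay among the pre-miR-16 arrays, and without it the change was 1.22 and called (adjusted p = 0.00291). The dimmer Mmp17 probe was detected on no pre-miR-Control array and so passed the filter through the pre-miR-16 arrays alone. It was at least 4.92-fold higher with pre-miR-16, with an adjusted p of 0.0026 when every kept probe was tested (limma). For Mmp24 the brighter probe changed by 0.88 ± 0.32 (adjusted p = 0.0617) and the dimmer one by −0.33 ± 0.16, neither of them called, though the brighter was called at 1.26 without pre-miR-16 replicate 2. With spike-in scaling Mmp17 and Mmp24 were called as rises, at 1.13 and 1.26, so that no direction holds for the membrane-type MMPs as a group. Mmp16 was detected on 2 of 3 pre-miR-16 arrays and no pre-miR-Control array, and was not tested.

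Among the other MMPs, Mmp23, a small enzyme whose inactive form is anchored in the membrane, had levels of 0.71, 1.15 and 0.66 on pre-miR-16 arrays, against −2.31, −2.24 and −1.97 on pre-miR-Control arrays. It rose by 3.01 ± 0.17 (adjusted p = 5.59e-05, limma), with a clear gap between the groups. Mmp28, epilysin, changed by −0.27 ± 0.28 and was not called. Mmp19 was detected on 1 pre-miR-16 array, Mmp20, the enamelysin of teeth, and Mmp21 on no array.

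**Figure D2:**
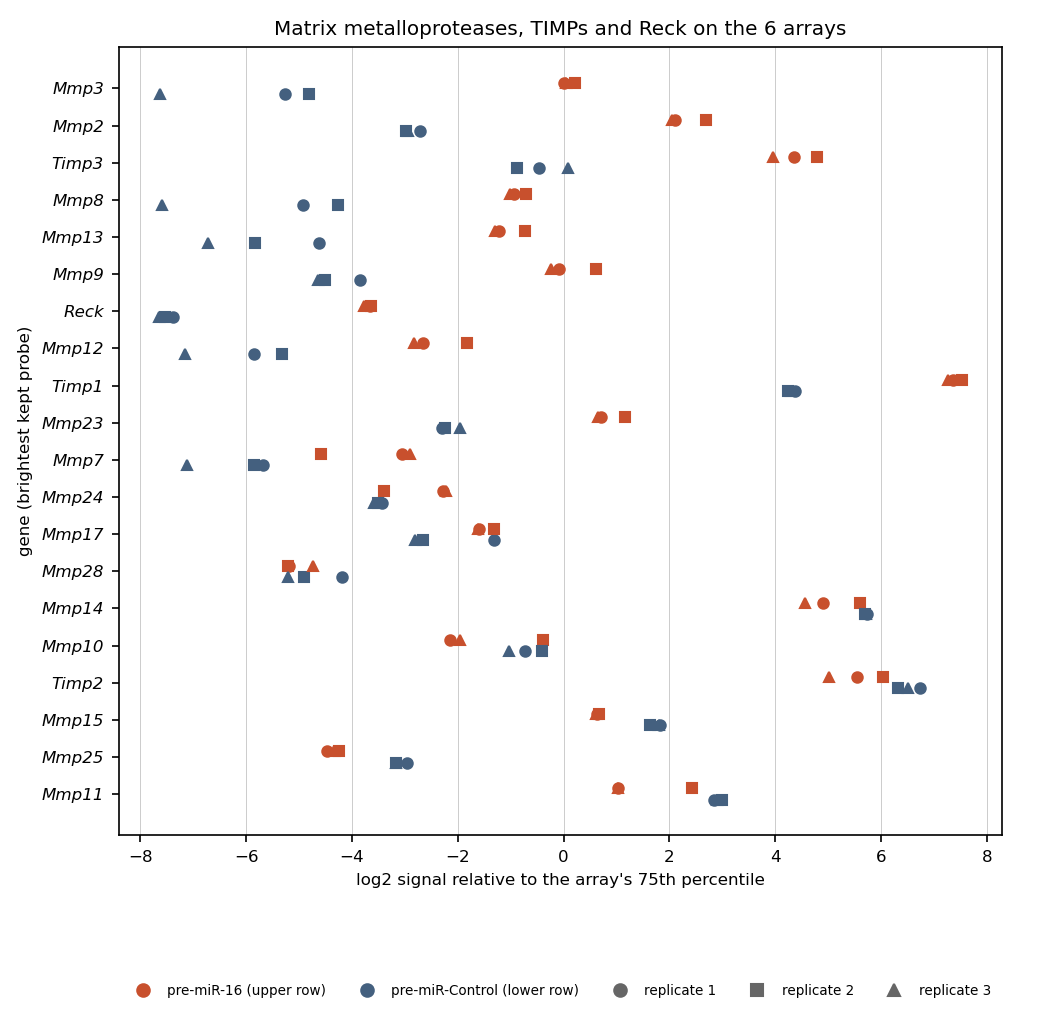
Level of each tested MMP, TIMP and Reck on the 6 arrays (log2 signal relative to the array's 75th percentile), pre-miR-16 above pre-miR-Control in each gene, with replicates 1, 2 and 3 as circle, square and triangle. Levels are read within a gene only. Mmp3 lies near 0 on pre-miR-16 arrays and between −4.81 and −7.63 on pre-miR-Control arrays, whereas Timp2 lies between 5.01 and 6.03 on pre-miR-16 arrays and between 6.33 and 6.73 on pre-miR-Control arrays.

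Of the 8 neighbours on chromosome 9, whose probes span 415 kb (mm7), 5 rose, 1 was not called and 2 were detected on no array. All 5 that rose passed the filter through the pre-miR-16 arrays alone, so that their count and direction follow from the filter, and Mmp10, the neighbour that was detected on all arrays of both groups, was not called. In the order of the probes, Mmp13, Mmp12 and Mmp3 rose, Mmp1a was not tested, Mmp10 was not called, Mmp8 rose, Mmp20 was not tested and Mmp7 rose. A match to TGANTCA stood 35 bases before the start in Mmp13, 44 in Mmp12, 46 in Mmp3, 63 in Mmp7 and also 63 in Mmp10, 73 in Mmp1a and 95 in Mmp20, while the Mmp8 window held none. Mmp12 and Mmp7 each had a second window without a match. The letters thus stood before 4 of the 5 neighbours that rose, and before Mmp10, Mmp1a and Mmp20 as well. Over the members, 45 of 76 genes had a promoter in the RefSeq table, and 11 of them (24.4%) held a match, against 7.81% of 32851 promoters of the same length; TATAAA was in 26.7% of the members and 13.6% of all promoters, and GGGCGG, searched like the others on both strands, in 60.0% and 35.7%. The member shares count genes with a match in any of their windows; over the 50 member windows, the unit of the shares over all promoters, they were 22.0%, 24.0% and 54.0%. Of the 11 members with TGANTCA, all but Adam19, Adam1b, Adam25 and Adam29 were the chromosome 9 neighbours named above. Most of the matches among members thus lie in this 1 cluster. By outcome, TGANTCA was in 5 of 17 members that rose, 0 of 7 that fell and 6 of 21 that were not called or not tested. A match is a description of these letters and not a measured binding site.

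**Figure D3:**
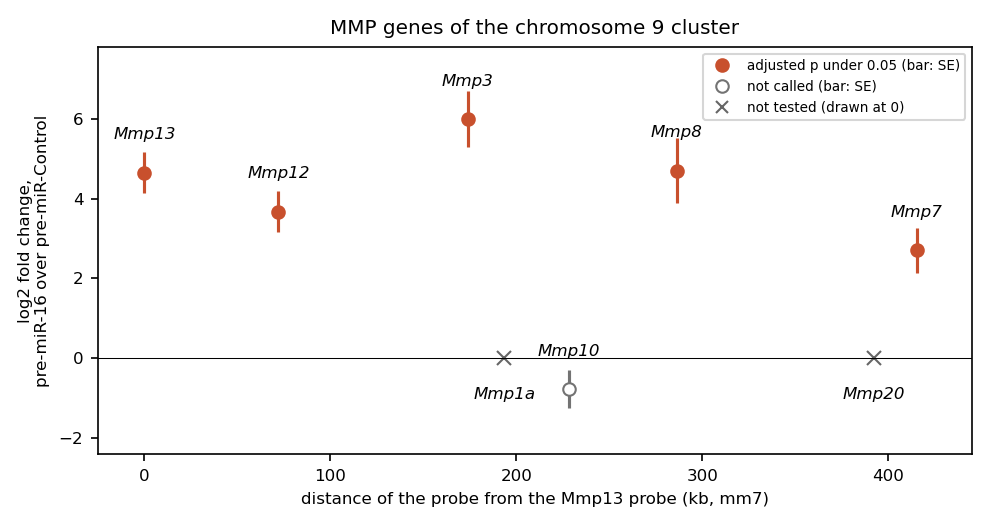
Log2 change, pre-miR-16 over pre-miR-Control, of the 8 MMP genes on chromosome 9 against the distance of their probe from that of Mmp13 (kb). Bars are SE. The 5 filled points lie between 2.70 and 5.99, Mmp10 lies at −0.78, and crosses at 0 stand for Mmp1a and Mmp20, which were not tested. The 5 passed the filter through the pre-miR-16 arrays alone.

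The inhibitors also changed, 3 upwards and 1 downwards. Of the 3, Reck passed the filter through the pre-miR-16 arrays alone, so that its direction follows from the filter. Timp1, a broad inhibitor of secreted MMPs (chrX:19307699-19307758, mm7), had levels of 7.35, 7.53 and 7.26 on pre-miR-16 arrays, against 4.37, 4.24 and 4.29 on pre-miR-Control arrays, a rise of 3.08 ± 0.10 or 8.45-fold (adjusted p = 1.21e-05, limma). The other 2 Timp1 probes both gave 3.38. Timp3, which binds to the matrix and also inhibits ADAMs and ADAMTS enzymes (chr10:85907162-85907221, mm7), had levels of 4.35, 4.80 and 3.95 on pre-miR-16 arrays, against −0.46, −0.88 and 0.07 on pre-miR-Control arrays. The lowest pre-miR-16 array was far above the highest pre-miR-Control array, and the change was 4.79 ± 0.30, or 27.6-fold (adjusted p = 9.14e-05).

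Reck had levels of −3.66, −3.65 and −3.77 on pre-miR-16 arrays, against −7.39, −7.53 and −7.65 on pre-miR-Control arrays, where it was not detected. It was at least 3.12-fold higher with pre-miR-16 (adjusted p = 1.19e-05, limma), with a log2 change of 0.71 under normexp correction. Timp2, which both inhibits MMPs and takes part in the activation of pro-Mmp2 by Mmp14, had levels of 5.55, 6.03 and 5.01 on pre-miR-16 arrays, against 6.73, 6.33 and 6.51 on pre-miR-Control arrays. The groups did not overlap, and Timp2 fell by 0.99 ± 0.27 on the log2 scale (adjusted p = 0.023). The fall was not called with spike-in scaling (−0.61, adjusted p = 0.071) or after blocking on slide (−0.73, adjusted p = 0.069), and came to 1.18 in slide 1 and 0.39 in slide 2. Timp4, at −5.22, −5.54 and −5.28 on pre-miR-16 arrays and −4.95, −5.25 and −5.01 on pre-miR-Control arrays, was detected on 1 pre-miR-16 array and 2 pre-miR-Control arrays and was not tested.

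All 4 tested ADAMTS proteoglycanases, which cut aggrecan, versican and related proteoglycans, rose, Adamts5 having passed the filter through the pre-miR-16 arrays alone. Adamts5, one of the main aggrecanases of cartilage, had levels of −1.23, −0.69 and −1.01 on pre-miR-16 arrays, against −5.97, −5.34 and −5.30 on pre-miR-Control arrays, where it was not detected. It was at least 20.3-fold higher with pre-miR-16 (adjusted p = 3.49e-05, limma), with a log2 change of 2.30 under normexp correction. Adamts4, the other main aggrecanase, had levels of −0.14, 0.36 and −0.25 on pre-miR-16 arrays, against −3.14, −3.15 and −3.24 on pre-miR-Control arrays, and rose by 3.16 ± 0.17. Adamts8, reported to be antiangiogenic, had levels of 0.19, −0.60 and 0.16 on pre-miR-16 arrays, against −2.56, −2.72 and −2.20 on pre-miR-Control arrays. Its change was 2.41 ± 0.25, and 2.32 ± 0.25 by a second probe. Adamts1 rose by 1.98 ± 0.36 (1.15 with normexp correction). Of the same group, Adamts9 was detected on 2 pre-miR-16 arrays and no pre-miR-Control array, Adamts15 on 1 pre-miR-16 array, and Adamts20 on 1 pre-miR-Control array. These 3 were not tested.

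Of the procollagen N-propeptidases, which remove the amino-terminal propeptide of fibrillar procollagens, 1 rose and 1 fell. Adamts2 had levels of −0.02, 0.13 and −0.15 on pre-miR-16 arrays, against −2.89, −3.62 and −4.27 on pre-miR-Control arrays, and rose by 3.58 ± 0.34 (adjusted p = 0.000499, limma). Adamts3 had levels of −7.24, −7.38 and −6.99 on pre-miR-16 arrays, against −4.14, −3.96 and −4.54 on pre-miR-Control arrays. The Adamts3 probe tested was detected on no pre-miR-16 array and passed the filter through the pre-miR-Control arrays alone, so that only a bound holds: its level was at least 2.14-fold lower with pre-miR-16 (adjusted p = 7.53e-05). The fall was 0.78 with normexp correction, smaller than that of Mmp11 (1.39), and Adamts3 lost its call without the filter on dim probes, where another of its probes was the brightest (adjusted p = 0.46).

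Of the other ADAMTS genes 2 rose, 1 fell and 1 was not called, Adamts6 having passed the filter through the pre-miR-16 arrays alone. Adamts12 had levels of −1.62, −1.09 and −1.67 on pre-miR-16 arrays, against −4.17, −4.23 and −4.21 on pre-miR-Control arrays, a change of 2.74 ± 0.17 (1.55 with normexp correction). Adamts6 had levels of −3.71, −3.27 and −3.50 on pre-miR-16 arrays, against −6.02, −5.92 and −6.25 on pre-miR-Control arrays, where it was not detected, and was at least 3.58-fold higher with pre-miR-16 (0.56 on the log2 scale with normexp correction). Adamts7, which cuts the cartilage protein Comp, had levels of −3.49, −2.18 and −3.18 on pre-miR-16 arrays, against −1.46, −1.73 and −2.05 on pre-miR-Control arrays. All pre-miR-16 arrays were lower, replicate 2 by little, and the change was −1.20 ± 0.35, or −1.74 ± 0.44 by a second probe. The Adamts7 fall came to 2.03 in slide 1 and 0.29 in slide 2, and lost its call after blocking on slide (adjusted p = 0.135) and with spike-in scaling (adjusted p = 0.088). Adamts10 changed by 0.11 ± 0.17. Adamts16, Adamts18 and Adamts19 were each detected on 1 pre-miR-Control array alone and Adamts13, which cuts von Willebrand factor, on no array. These 4 were not tested. Of the ADAMTS-like proteins, which have no protease domain, Adamtsl5 rose by 0.32 ± 0.10, Adamtsl4 was not called at 0.37 ± 0.21 (called at 0.59 without pre-miR-16 replicate 2), and Adamtsl1, Adamtsl2 and Adamtsl3 were detected on no array.

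The catalytic ADAMs changed less, with a median of 0.59 over 8 tested genes, of which 4 rose, 2 fell and 2 were not called. Adam19, which sheds neuregulin, had levels of −0.84, −0.22 and −1.05 on pre-miR-16 arrays, against −3.75, −4.06 and −4.13 on pre-miR-Control arrays. The groups were far apart, with a change of 3.28 ± 0.23 by one probe and 3.42 ± 0.17 by another (adjusted p = 0.000154 for the first, limma; 2.15 with normexp correction). The 3 other rises were of under 2-fold. Adam9 changed by 0.64 ± 0.11, Adam8 by 0.60 ± 0.11 and Adam15 by 0.58 ± 0.19, and Adam15 gave 0.81 in slide 1 and 0.13 in slide 2 and lost its call after blocking on slide (adjusted p = 0.155). Adam10, the main sheddase of Notch and E-cadherin, had levels of −2.27, −2.43 and −2.36 on pre-miR-16 arrays, against −1.90, −1.85 and −1.98 on pre-miR-Control arrays, and fell by 0.45 ± 0.09 (adjusted p = 0.00878). That fall was not called with spike-in scaling (−0.065, adjusted p = 0.809). Adam17, the TNF-alpha converting enzyme, had levels of −0.42, −0.16 and −0.62 on pre-miR-16 arrays, against −0.40, −0.70 and −0.49 on pre-miR-Control arrays, which overlapped, with a change of 0.13 ± 0.15.

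Adam28 fell by 0.92 ± 0.30, or 0.58 with normexp correction, a call lost with spike-in scaling (adjusted p = 0.245) and after blocking on slide (adjusted p = 0.075). Adam33 levels were 0.04, −1.99 and 0.17 on pre-miR-16 arrays, against −1.66, −1.93 and −1.17 on pre-miR-Control arrays. Pre-miR-16 replicate 2 lay below all pre-miR-Control arrays and the other pre-miR-16 arrays above them, and the change of 1.00 ± 0.59 was not called, whereas without replicate 2 it was 1.70 and called (adjusted p = 0.00323). Adam12, which is known from tumour stroma, was detected on no array. Of the ADAMs that lack an active protease site, Adam23, a neuronal cell adhesion protein, had levels of −4.11, −3.51 and −3.74 on pre-miR-16 arrays, against −5.95, −7.33 and −7.51 on pre-miR-Control arrays. Adam23 passed the filter through the pre-miR-16 arrays alone and was detected on no pre-miR-Control array. It was at least 2.93-fold higher with pre-miR-16 (adjusted p = 0.00197, limma). With normexp correction its log2 change was 0.55. Adam11 changed by 0.05 ± 0.36, or 0.47 with a call without pre-miR-16 replicate 2 (adjusted p = 0.0256), and Adam22 was detected on no array.

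Most ADAMs known from testis and sperm were at the background of the array: 3 of 15 were tested. Adam1a fell by 0.65 ± 0.18, a call lost with spike-in scaling (−0.27, adjusted p = 0.432), while Adam3 and Adam26a changed by −0.40 ± 0.25 and −0.24 ± 0.24 and were not called. The 31 member genes that were not tested comprised 18 detected on no array, 4 on pre-miR-16 arrays alone, 7 on pre-miR-Control arrays alone and 2 in both groups without reaching the filter. Each of the 7 was detected on only 1 array.

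**Figure D4:**
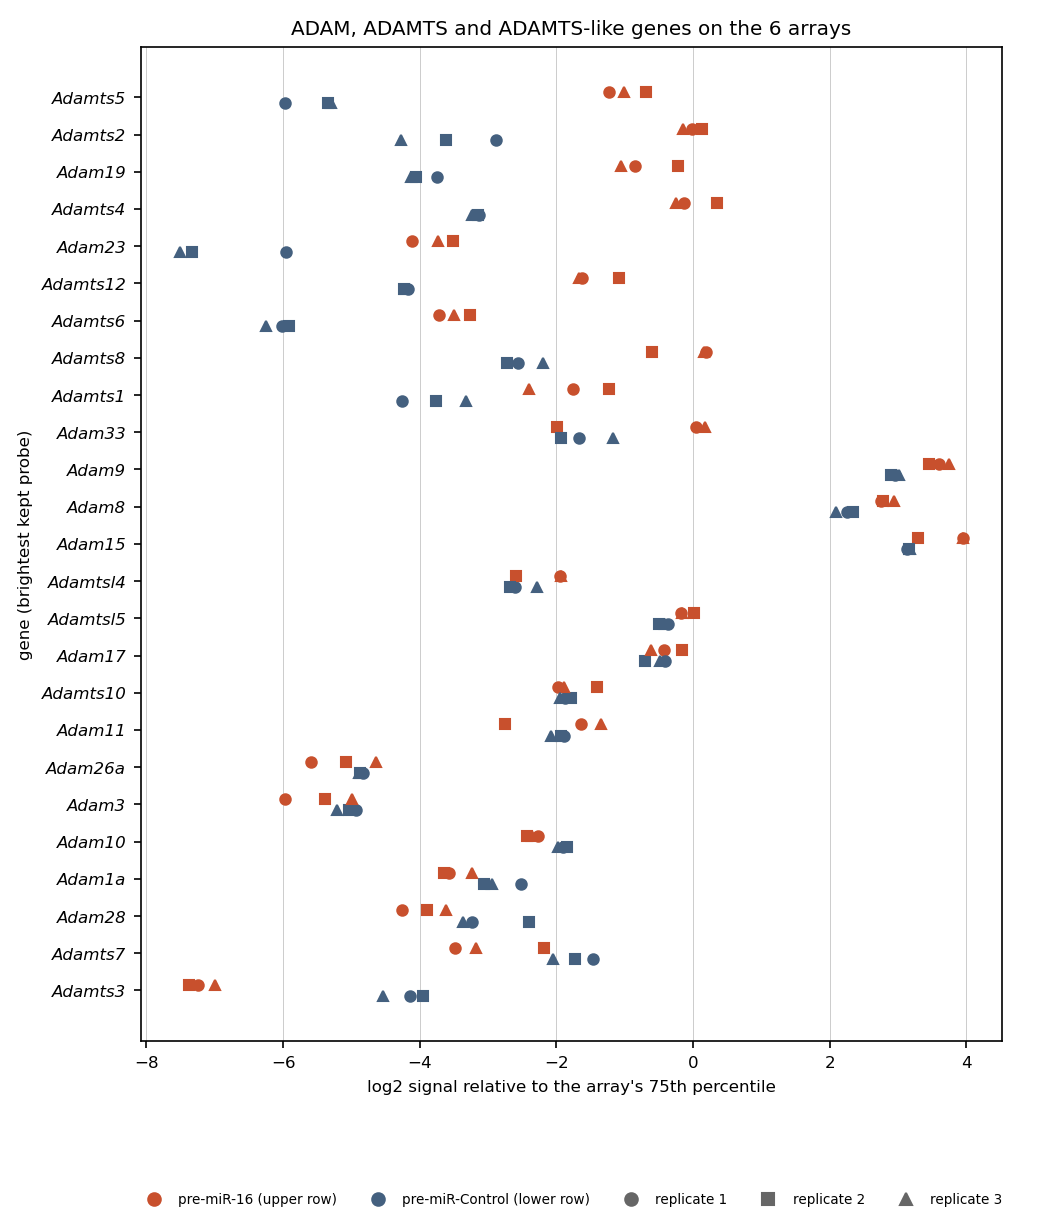
Level of each tested ADAM, ADAMTS and ADAMTS-like gene on the 6 arrays (log2 signal relative to the array's 75th percentile), pre-miR-16 above pre-miR-Control, with replicates as circle, square and triangle. Levels are read within a gene only. Adamts5 lies between −1.23 and −0.69 on pre-miR-16 arrays and between −5.97 and −5.30 on pre-miR-Control arrays, and the 2 groups of Adam17 overlap.

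Markers of other cell types moved with these genes. Of 12 fibroblast markers 11 rose and none fell, and their summed level relative to the 75th percentile was 589 to 733 on pre-miR-16 arrays and 393 to 462 on pre-miR-Control arrays. Most of the pre-miR-Control sum was the signal of Dcn, which changed by −0.07 ± 0.13; without it the sums were 253 to 331 on pre-miR-16 arrays and 16.7 to 18.1 on pre-miR-Control arrays, and the median change of the list was 3.87. Of 14 macrophage markers 13 rose and none fell, with sums of 217 to 264 on pre-miR-16 arrays and 16.2 to 22.1 on pre-miR-Control arrays, and Csf1r changed by −0.51 ± 0.26 without a call. Most of the pre-miR-16 sum was the signal of Lyz2, and most of the pre-miR-Control sum that of Lyz2 and Cd14. These 2 genes rose by 4.86 ± 0.34 and 1.47 ± 0.28. Ptprc, Mrc1, Itgam, Msr1, C1qa, C1qc and Tyrobp passed the filter through the pre-miR-16 arrays alone, as did the fibroblast markers Fap and Lum. Their direction thus follows from the filter. Over all genes tested 16% rose. The macrophage markers Ptprc and Mrc1 were detected on no pre-miR-Control array. Of 10 luminal epithelial markers, all detected on all 6 arrays, 8 fell and none rose, with sums of 596 to 629 on pre-miR-16 arrays and 1001 to 1138 on pre-miR-Control arrays. Over all genes tested 33.1% fell. Of the 8, Cldn4, Cldn7, Cldn3 and Krt19 fell by 0.47 to 0.56, little more than the 0.38 by which spike-in scaling moves every change up. Of 7 tested myoepithelial markers 4 rose (Acta2, Cnn1, Tagln and Myh11), the last having passed the filter through the pre-miR-16 arrays alone. The keratins Krt14 and Krt17 fell by 1.95 and 1.83, Krt5 was not called, and Trp63 was detected on no array. Of 3 tested neutrophil markers 2 rose, S100a8 by 4.26 ± 1.10 (adjusted p = 0.0202, limma) and Ltf by 0.80, while Mpo was not called. S100a8 had levels of 3.49, −0.35 and 3.95 on pre-miR-16 arrays, against −2.15, −1.81 and −1.75 on pre-miR-Control arrays. Its pre-miR-16 replicate 2 thus lay far below replicates 1 and 3. The list summed to 1.17 (replicate 2) to 15.8 on pre-miR-16 arrays and 0.460 to 0.569 on pre-miR-Control arrays. The endothelial gene Vwf was detected on all 6 arrays and changed by −0.05 ± 0.26 without a call. The neutrophil genes Elane and Camp and the endothelial genes Cdh5, Kdr, Tek and Tie1 were detected on no array. The part of these cell types in the changes of the proteases was not tested.

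Matrix proteins that the enzymes cut were among the genes that rose: 6 of 12 tested rose and none fell, with a median of 0.96. The shares over all genes tested were 16% for rises and 33.1% for falls. Col1a1, Col3a1, Fbn1, Tnc and Col4a1 rose by 3.94 to 4.42 and Fn1, fibronectin, by 1.47 ± 0.13, and the first 3 are also in the list of fibroblast markers. The cartilage genes Acan and Comp changed by −0.10 ± 0.19 and 0.05 ± 0.10 and were not called.

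In the plasminogen system, whose product plasmin activates several pro-MMPs, the 2 tested activators fell and 3 inhibitors of serine proteases rose. Plau, urokinase, had mean levels of 0.45 ± 0.61 on pre-miR-16 arrays and 2.78 ± 0.10 on pre-miR-Control arrays (SD, n = 3 each), a change of −2.34 ± 0.30 (adjusted p = 0.00158, limma). Its receptor Plaur changed by −0.73 ± 0.19 and tissue activator Plat by −0.30 ± 0.09, both called. The fall of Plat is smaller than the 0.38 by which spike-in scaling moves every change up, so that with that scaling Plat is not lower. The inhibitors Serpine2, Serpinb2 and Serpinf2 rose by 4.17, 2.41 and 0.71. Serpine2 and Serpinb2 passed the filter through the pre-miR-16 arrays alone, so that their direction follows from the filter. Of the 7 genes of this list analysed here, 3 rose and 3 fell, with a median change of −0.23. For comparison, 16% of all genes tested rose and 33.1% fell.

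Of 11 genes for the maturation of ADAMs and MMPs, 3 rose, 1 fell and 7 were not called, with a median of 0.20. Counts in this paragraph stand beside 16% rises and 33.1% falls over all genes tested. The proprotein convertase Pcsk5, which passed the filter through the pre-miR-16 arrays alone, rose by 6.30 ± 0.39 (adjusted p = 7.98e-05, limma). Furin, which activates membrane-type MMPs, changed by 0.32 ± 0.14 without a call. Among 7 other metzincins and inhibitors, 5 rose and none fell, with a median of 0.92. Pappa, which cuts IGF-binding proteins, rose by 4.50 ± 0.18, and Tfpi2, a serine protease inhibitor of the matrix, was at least 12.6-fold higher with pre-miR-16. Tfpi2 and Tll1, another of the 5, passed the filter through the pre-miR-16 arrays alone, so that their direction follows from the filter.

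Substrates of ADAM shedding had 5 rises and 3 falls among 15 tested, with a median of 0.52. For this list and the next, the shares over all genes tested were 16% for rises and 33.1% for falls. Ereg, among the 5, passed the filter through the pre-miR-16 arrays alone. Hbegf, an EGF-family ligand, rose by 1.33 ± 0.17, whereas Tgfa, another such ligand, fell by 0.53 ± 0.11 and Notch1 fell by 1.23 ± 0.29. Of 15 known regulators of MMP transcription, 8 rose and 3 fell, with a median of 0.86. Il6 and Osm, among the 8, passed the filter through the pre-miR-16 arrays alone, so that their direction follows from the filter. The cytokines Il6, Il1b and Il1a rose by 4.33 ± 0.18, 4.84 ± 0.32 and 2.32 ± 0.31, and Tgfb1 rose 2.83-fold. Of the AP-1 genes, Junb, Fos and Fosl1 rose by 0.97, 0.86 and 0.92, Fosl2 and Jund fell by 0.45 and 0.69, and Jun changed by −0.21 ± 0.19 without a call. Spike-in scaling moves every change up by 0.38, so that the falls of Tgfa, Fosl2 and Jund are smaller with it.

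Slides 1 and 2 each held arrays of both groups. All 33 called members had the same sign within slide 1, within slide 2 and over all arrays. The 2 groups overlapped in none of the 33, so that this sign was fixed in advance and is no check on slides. For Mmp3 slide 1 gave 5.27 and slide 2 gave 6.43, and for Mmp2 they gave 4.82 and 5.66. With slide as a block Adam15, Adam28, Adamts7, Adamtsl5, Mmp11 and Timp2 lost their calls, with changes of 0.42, −1.02, −1.04, 0.35, −1.08 and −0.73.

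**Figure D5:**
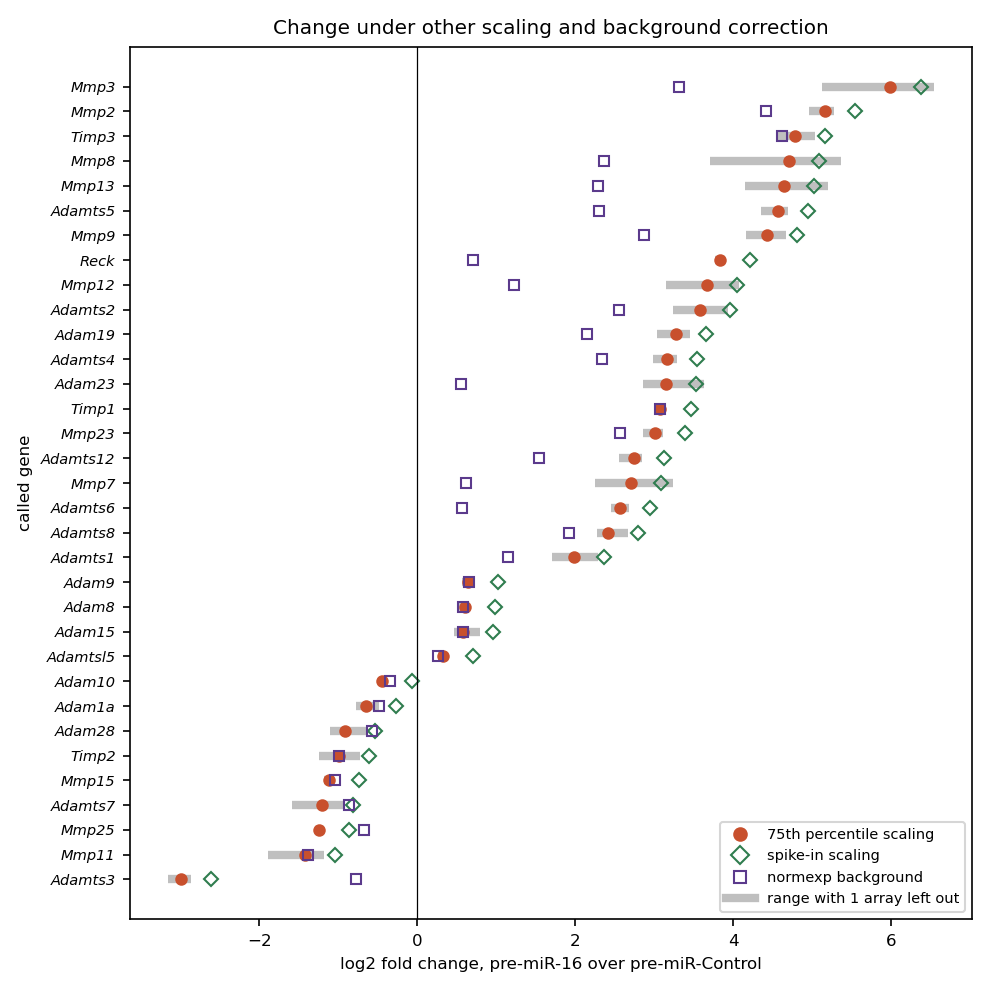
Log2 change of the 33 called genes, pre-miR-16 over pre-miR-Control, with 75th percentile scaling (circles), spike-in scaling (diamonds) and normexp background correction (squares); grey bars give the range when each array was left out in turn. Spike-in scaling moves all points right by the same 0.38, and normexp moves Reck to 0.71 and leaves Timp1 and Timp3 nearly in place.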

How the data were processed

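Per the file headers, the deposited scanner files of 6 single-colour arrays give each spot an intensity from which Agilent Feature Extraction 9.5.3.1 had removed background and within-array trends; the raw mean and local background intensity served for normexp (offset 50). The deposited series matrix holds log2 values whose scaling and centring between arrays the labels leave unstated. No matrix column lacked a sample.

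In the present computation (R 4.3.3; limma 3.58.1) control spots and outlier spots were left out, spots of a probe averaged on the log2 scale, and each array's 75th percentile subtracted. Probes stayed in if a share of 0.5 or more of their spots passed the scanner’s background flag on each of the 3 arrays of either group, which left 23827 probes, 62 of them of members. Each gene was tested by its brightest kept probe (lmFit, eBayes; Benjamini-Hochberg). Probes were named by RefSeq accession, then symbol, then the file's name, and 1 member probe named Adam6 carries an accession of Adam6a. Coordinates of probes are the files' (mm7); exon and UTR positions were not used here. The code was tested on simulated data.

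A fold against a group not well above background is a lower bound: each array's level there was set to the lowest level well above background, or its own if higher. Named with every array's value are called members with no overlap and a log2 change of at least 2, other called MMPs, TIMPs, Reck and the 5 largest falls; others stand as counts and examples, some with array values too. The members, role lists, marker lists, pathway lists, rules and alternatives were chosen with earlier results of these data known. Groups came from the labels, which call the cultures biological replicates. An exact test of 3 against 3 arrays cannot give p under 0.1. Each slide was scanned on its own; slide 1 held replicate 1 of both groups, slide 2 pre-miR-16 replicate 2 and pre-miR-Control replicates 2 and 3, and slide 3 only pre-miR-16 replicate 3. The alternatives were other scaling, background correction, filters, probe summaries, variance settings, slide or replicate blocks, thresholds, the deposited matrix and each array left out. A result for the plasminogen system is not reported here and was left out of that list’s counts.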

Additional observations from a re-analysis of the deposited data

How the results depend on the processing

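Of the 33 called members, 24 stayed called under every other fit that tested them, and all 33 kept their direction; of the 33, 26 had an adjusted p under 0.01 and 25 a fold of at least 2. The count of rises stayed between 20 and 28, with 22 to 28 when 1 array was left out, except that 15 rose when probes had to be well above background on all 6 arrays, where 33 members were tested. The count of falls, 9, was 4 with spike-in scaling, 4 without a filter on dim probes, 5 with slide as a fixed block, 4 at an adjusted p under 0.01, 5 with a fold of at least 2, and 4 to 9 with 1 array left out. With spike-in scaling 86.7% of called members rose, against 72.7% with the 75th percentile, and over all genes 77.9% against 32.5%, or 3672 rises and 1041 falls. Normexp correction made 16 of the 33 changes over 1.5 times smaller, without ending a call.

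Calls lost with 1 array left out were those of Adam15, Adam1a, Adam28, Adamts7, Adamtsl5, Mmp11 and Timp2 without pre-miR-16 replicate 1 or without pre-miR-Control replicate 1; Adam1a and Adam28 without pre-miR-16 replicate 2; Adam15, Adam28, Adamts7, Adamtsl5 and Mmp11 without pre-miR-16 replicate 3 or pre-miR-Control replicate 2; and Adam15, Adam1a, Adamtsl5, Mmp11 and Timp2 without pre-miR-Control replicate 3. Their highest adjusted p (limma) was 0.132 for Adam15, 0.082 for Adam1a, 0.125 for Adam28, 0.091 for Adamts7, 0.124 for Adamtsl5, 0.072 for Mmp11 and 0.069 for Timp2. The cause was not tested. Members that became calls were Adam11, Adam33, Adamtsl4, Mmp10, Mmp14 and Mmp24 without pre-miR-16 replicate 2, and Mmp17 without pre-miR-Control replicate 1.

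Cultures of the same replicate number shared no clear deviation from their group means (correlations of −0.088, −0.026 and −0.0028). The numbers of pre-miR-16 replicates 1 and 2 are unsettled. Replicate 1 with pre-miR-Control replicate 2 gave 0.022, and replicate 2 with pre-miR-Control replicate 1 gave 0.063. Whether the cultures were prepared in pairs cannot be told from this check. With a replicate block 22 members rose and 8 fell, and Adam15, Adam28 and Adamtsl5 lost their calls.

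Only changes that were not called reversed, and the cause was not tested. Adam11 was −0.0079 with quantile normalization, −0.050 with the mean of its probes, −0.32 with slide as a fixed block, −0.087 without pre-miR-16 replicate 1, −0.23 without pre-miR-16 replicate 3 and −0.0061 without pre-miR-Control replicate 3, in a leave-one-out range up to 0.47. Adam26a was 0.14 with spike-in scaling and 0.0063 without pre-miR-16 replicate 1, in a range down to −0.47. Adamts10 was −0.0093 with the mean of its probes, −0.067 with array weights and −0.067 without pre-miR-16 replicate 2, in a range up to 0.22. Mmp28 was 0.11 with spike-in scaling and 0.017 without pre-miR-Control replicate 1, in a range down to −0.50. Within single slides, untested, the sign also turned for Adam17 (−0.021), Adamts10 (−0.10) and Mmp17 (−0.28) in slide 1, and for Adam11 (−0.75), Adam33 (−0.44), Adamtsl4 (−0.11) and Mmp10 (0.34) in slide 2.

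The 31 members that did not pass the filter bound what these arrays can show, and dim members have a fold that depends on the background correction.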

Other observations

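Among the pre-miR-16 arrays, the median gap over the 45 members between replicate 2 and the mean of replicates 1 and 3 was 0.47 on the log2 scale, against 0.15 between replicates 1 and 3. Without replicate 2, 28 members rose and 9 fell. In the deposited matrix the columns labelled pre-miR-16 replicates 1 and 2 followed each other's scanner file more closely than their own (Spearman correlations of 0.965 and 0.970 against 0.946 and 0.944), so that the numbers of these 2 arrays are unsettled while their group is the same.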
